A study of Bos taurus with 10 samples.

Results

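The transcripts of 10 genes of the vessel wall and of its growth signals were followed in 2 fat depots of cattle. They were chosen by name, as the rows of the deposited gene table called EGFL7, PECAM1, VWF, KDR, FLT1, TEK, TIE1, VEGFA, VEGFB and ANGPT2. All 10 members were found among 12674 listed genes, and all 10 were among the 12521 genes that passed the filter on low counts. The samples were intramuscular fat, the marbling fat that lies inside muscle, and subcutaneous fat from under the skin, with 5 libraries each. They came from 5 adult female cattle (heifers) of an Angus cross, and the labels name no treatment or genotype. Libraries of the depots that carry the same number were treated as coming from 1 animal. Whole tissue was sequenced, so vessels, fat cells, blood and any adhering muscle all give RNA. The series asks why marbling lags behind the growth of fat under the skin.

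Endothelial cells line every vessel and bring blood-borne fatty acids and oxygen to fat cells. Vascular endothelial growth factors bind receptor kinases on these cells. VEGFA acts mainly through KDR, while FLT1 binds VEGFA and VEGFB tightly and signals weakly, so that it can act as a decoy. Angiopoietins act on a second pair of receptors, TEK and TIE1: ANGPT1 activates TEK and steadies vessels, and ANGPT2 can block it and loosen them. PECAM1, VWF and EGFL7 are an adhesion molecule, a clotting protein and a secreted matrix protein of the endothelium. In adult fat, vessel growth goes along with the growth of the tissue.

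Counts over the listed genes summed to 9392739 to 14836808 in intramuscular and 13776094 to 17685678 in subcutaneous libraries. The 10 genes had 167 to 23386 counts in any library, so none was near the limit of detection. Values are CPM (counts scaled to a common library size) with edgeR's scaled library sizes. A gene is called where edgeR's quasi-likelihood test, fitted without the pairing by animal, gave an adjusted p under 0.05. Log2 fold changes are intramuscular over subcutaneous. Summed CPM of striated muscle markers (13 of 44 with values) was 434 to 2306 in intramuscular and 19.0 to 39.4 in subcutaneous libraries. It was highest in intramuscular replicates 1 (2306 CPM) and 3 (1302 CPM). Adipocyte markers (12 of 13 with values, PLIN1 and ADIPOQ among them) summed to 6561 to 20630 CPM in intramuscular and 22340 to 29787 CPM in subcutaneous libraries. Of these markers 2 fell, beside 5.49% of all genes tested, and 4 with the animal as a block, beside 6.96%. Without intramuscular replicates 1 and 3, 0 of them fell. Over all genes, that fit of fewer libraries called 67 lower, against 688 with all libraries. In bulk tissue, fewer cells of a type and less RNA per cell cannot be told apart, and this holds for every value below.

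EGFL7 was the member that fell in intramuscular fat, to less than its subcutaneous level in all 5 animals, while the other 9 genes did not pass the test. VWF and VEGFB leaned lower and FLT1 leaned higher, each with an unadjusted p under 0.05. Of the 10 genes, 0 rose and 1 fell, beside 6.75% and 5.49% of all genes tested (12.2% in either direction). By unadjusted p, 4 of 10 were under 0.05, beside 30.7% of all genes. The values of the depots overlapped for all 10, whereas they did not overlap for 12.9% of all genes. The median log2 fold change was -0.07 over the 10 genes and -0.04 over all genes tested.

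**Figure D1:**
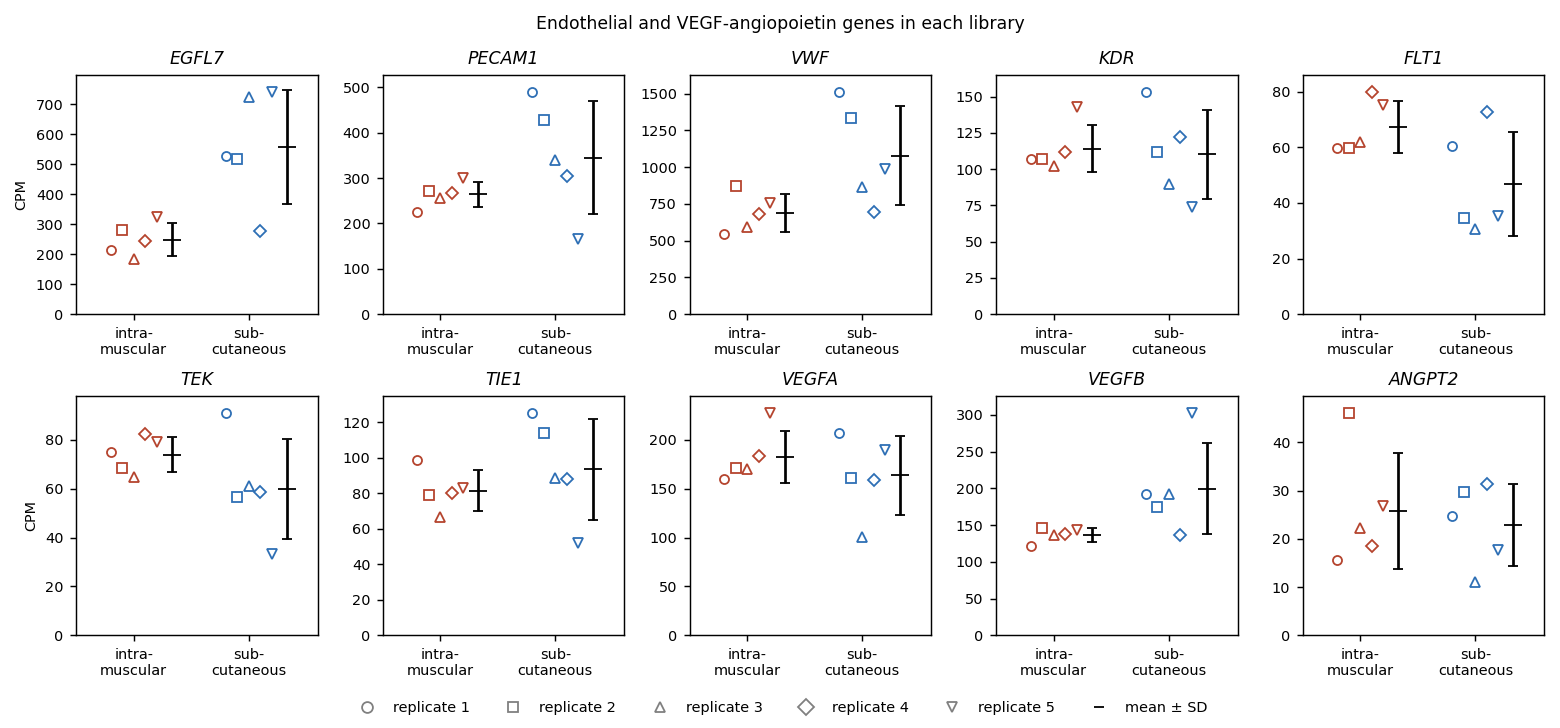
CPM (y axes, from 0) of the 10 genes in 5 intramuscular libraries (left, red) and 5 subcutaneous libraries (right, blue), 1 symbol per replicate number, with mean ± SD beside them. EGFL7 averaged 249 CPM in intramuscular and 557 CPM in subcutaneous fat, and the subcutaneous libraries were the more scattered ones for each gene on the log2 scale.

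EGFL7 is made mostly by endothelial cells and acts in vessel tube formation. The gene (ENSBTAG00000030278, chromosome 11, 104078014 to 104087183) measured 214, 281, 183, 243 and 323 CPM in intramuscular replicates 1 to 5. In subcutaneous replicates 1 to 5 it measured 529, 517, 724, 276 and 740 CPM. Subcutaneous replicate 4 lay inside the intramuscular range, and the other 4 subcutaneous libraries lay above all intramuscular ones. The means were 249 ± 55.3 CPM in intramuscular and 557 ± 189 CPM in subcutaneous fat (SD, n = 5 each). The log2 fold change was -1.16 ± 0.26 (SE; 95% interval -1.73 to -0.60), which is 2.24-fold lower in intramuscular fat (edgeR adjusted p = 0.0141). By pair of libraries the log2 ratio was -1.31, -0.88, -1.99, -0.18 and -1.19 in animals 1 to 5. EGFL7 was called in each of the 10 fits that left out 1 library (adjusted p 0.00324 to 0.0430). Intramuscular replicates 1 and 3, which had the most muscle transcripts, also had the lowest EGFL7. Without them the log2 fold change was -0.98 with an adjusted p of 0.122 (edgeR). Fewer libraries enter that fit, and over all genes it called 67 lower, against 688 with all libraries. The part of the muscle transcripts in the EGFL7 difference was not tested. In RefSeq's annotation (ARS-UCD2.0) the microRNA gene MIR126 lies inside EGFL7, and MIR2300A and MIR2300B lie inside FLT1. They were named outside the rule for named genes and are not analysed here.

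PECAM1, an adhesion molecule at the borders between endothelial cells that is also found on platelets and white blood cells, did not pass the test. The gene (ENSBTAG00000012066, chromosome 19, 48541625 to 48619840) measured 225, 272, 255, 268 and 300 CPM in intramuscular replicates 1 to 5, against 489, 427, 340, 304 and 165 CPM in subcutaneous replicates 1 to 5. All 5 intramuscular libraries lay within the subcutaneous range. The subcutaneous libraries held the highest and the lowest values, and replicate 5, which had the most EGFL7 of all, had the least PECAM1. That library also had the highest summed macrophage markers (1108 CPM), whose part was not tested. Its log2 fold change was -0.39 ± 0.24 (SE; 95% interval -0.91 to 0.14; edgeR adjusted p = 0.301). The 5′ end of PECAM1 shares 850 bases with MILR1 on the other strand, a gene with 1.57 ± 0.916 CPM in intramuscular and 1.35 ± 0.374 CPM in subcutaneous fat.

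VWF, the carrier of clotting factor VIII that endothelial cells store and platelets also hold, had the highest CPM of the 10 genes in both depots. The gene (ENSBTAG00000012265, chromosome 5, 104221024 to 104345680) measured 545, 869, 592, 678 and 754 CPM in intramuscular replicates 1 to 5, against 1509, 1333, 863, 693 and 985 CPM in subcutaneous replicates 1 to 5. It was lower in intramuscular fat in 5 of 5 pairs, with log2 ratios between -0.03 in animal 4 and -1.47 in animal 1. Beside VWF, EGFL7 was also lower in 5 of 5 pairs, as were 15.0% of all genes tested. The log2 fold change of VWF was -0.65 ± 0.23 (SE; 95% interval -1.15 to -0.14), with an edgeR adjusted p of 0.0847. It passed the threshold without subcutaneous replicate 4 (log2 fold change -0.77, adjusted p = 0.0443) and by DESeq2 (adjusted p = 0.0343), a test that called 19.9% of all genes. The authors' deposited table gives VWF an adjusted p of 0.0342 and a log2 fold change of -0.63. The platelet genes ITGA2B and GP9 measured 15.3 ± 3.96 and 1.70 ± 1.78 CPM in intramuscular fat, against 23.2 ± 6.11 and 3.01 ± 2.97 CPM in subcutaneous fat, and neither was called (edgeR adjusted p 0.104 and 0.499). Of 14 platelet and red cell markers 3 had values, and their part in the VWF values was not tested.

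None of the 4 receptors KDR, FLT1, TEK and TIE1 passed the test (edgeR adjusted p 0.158 to 0.871), and FLT1 alone had an unadjusted p under 0.05. KDR, the main signalling receptor for VEGFA (ENSBTAG00000000782, chromosome 6, 70564927 to 70612683), measured 107, 107, 102, 112 and 143 CPM in intramuscular replicates 1 to 5, against 153, 112, 89.5, 122 and 74.2 CPM in subcutaneous replicates 1 to 5. The intramuscular libraries all lay within the wider subcutaneous range, with a log2 fold change of 0.06 ± 0.19 (SE; 95% interval -0.36 to 0.48; edgeR adjusted p = 0.871). Its sign was negative without intramuscular replicate 5 (-0.04), subcutaneous replicate 3 (-0.01) or subcutaneous replicate 5 (-0.06).

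FLT1, the decoy-like receptor for VEGFA and VEGFB (ENSBTAG00000016915, chromosome 12, 31624125 to 31829369), had the largest positive fold change of the 10 genes. It measured 59.9, 59.8, 62.1, 79.8 and 75.1 CPM in intramuscular replicates 1 to 5, against 60.6, 34.7, 30.8, 72.7 and 35.4 CPM in subcutaneous replicates 1 to 5. Subcutaneous replicates 2, 3 and 5 lay well below every intramuscular library, and replicates 1 and 4 lay among them. FLT1 had a log2 fold change of 0.52 ± 0.24 (SE; 95% interval 0.01 to 1.04), with an edgeR p of 0.0476 before and 0.158 after adjustment. Without subcutaneous replicate 4 it was 0.74 with an adjusted p of 0.0472.

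TEK, the angiopoietin receptor (ENSBTAG00000020148, chromosome 8, 17050131 to 17153178), measured 75.2, 68.5, 64.9, 82.3 and 78.9 CPM in intramuscular replicates 1 to 5. In subcutaneous replicates 1 to 5 it measured 90.8, 56.5, 61.0, 58.6 and 33.3 CPM. Subcutaneous replicate 1 was the highest library and the other 4 were lower than all intramuscular ones, so that the range of the depots still overlapped. TEK had a log2 fold change of 0.30 ± 0.22 (SE; 95% interval -0.17 to 0.77; edgeR adjusted p = 0.367). TIE1, its partner receptor with no well-established ligand of its own (ENSBTAG00000003777, chromosome 3, 102694863 to 102714614), measured 98.8, 79.3, 66.5, 79.9 and 83.0 CPM in intramuscular replicates 1 to 5. In subcutaneous replicates 1 to 5 it measured 125, 114, 88.8, 88.0 and 51.8 CPM. Its log2 fold change was -0.20 ± 0.21 (SE; 95% interval -0.66 to 0.26; edgeR adjusted p = 0.558), and all 5 intramuscular libraries lay within the subcutaneous range.

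Of the ligands, VEGFB leaned lower in intramuscular fat and VEGFA did not. VEGFA, the main growth signal for vessels, made by fat and muscle cells among others (ENSBTAG00000005339, chromosome 23, 17281915 to 17297193), measured 160, 171, 170, 183 and 227 CPM in intramuscular replicates 1 to 5, against 207, 161, 101, 159 and 190 CPM in subcutaneous replicates 1 to 5. Its log2 fold change was 0.16 ± 0.19 (SE; 95% interval -0.26 to 0.57; edgeR adjusted p = 0.617). Subcutaneous replicate 3 was the lowest library, and the other 9 lay between 159 and 227 CPM.

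VEGFB, a ligand of FLT1 linked in mice to fatty acid uptake across the endothelium, is widely made in fat, heart and muscle (ENSBTAG00000047567, chromosome 29, 42539450 to 42542594). It measured 121, 146, 136, 138 and 143 CPM in intramuscular replicates 1 to 5, against 192, 174, 192, 136 and 302 CPM in subcutaneous replicates 1 to 5. Subcutaneous replicate 4 lay inside the narrow intramuscular range and the other 4 lay above it, as they did for EGFL7. VEGFB had a log2 fold change of -0.54 ± 0.19 (SE; 95% interval -0.96 to -0.12), with an edgeR adjusted p of 0.0838, and of 0.0402 without subcutaneous replicate 4 (log2 fold change -0.65). The authors' deposited table gives it an adjusted p of 0.0566.

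ANGPT2, which endothelial cells release when vessels are remodelled (ENSBTAG00000011034, chromosome 27, 5552298 to 5612326), was the lowest of the 10 genes. It measured 15.6, 46.0, 22.2, 18.6 and 26.7 CPM in intramuscular replicates 1 to 5, against 24.8, 29.7, 11.0, 31.4 and 17.6 CPM in subcutaneous replicates 1 to 5. The depots overlapped almost fully, and intramuscular replicate 2 stood above the other 9 libraries. The log2 fold change was 0.17 ± 0.33 (SE; 95% interval -0.54 to 0.89; edgeR adjusted p = 0.756), and -0.15 without intramuscular replicate 2. The whole of ANGPT2 lies inside MCPH1 on the other strand, whose 16.4 ± 3.29 CPM in intramuscular and 16.7 ± 4.93 CPM in subcutaneous fat were close to the level of ANGPT2. No source used here gives the strand setting of the counting, so whether reads of these overlapping genes were told apart is not known.

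**Figure D2:**
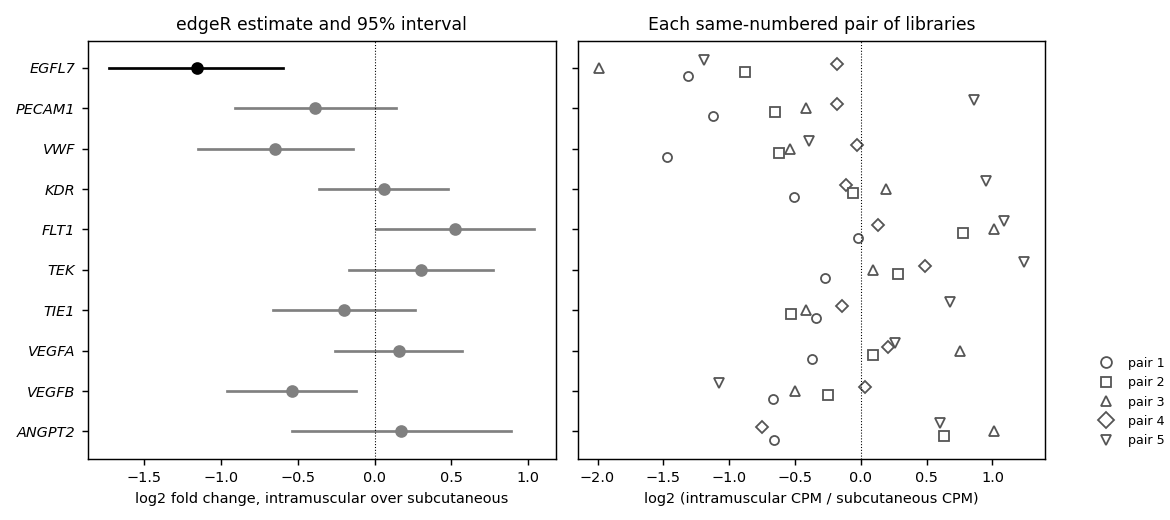
Left, edgeR log2 fold change (x axis, intramuscular over subcutaneous) of the 10 genes with its 95% interval, black where the adjusted p was under 0.05 and grey elsewhere. Right, log2 ratio of CPM in each same-numbered pair of libraries, 1 symbol per pair: EGFL7 and VWF were below 0 in all 5 pairs, and FLT1, TEK and VEGFA were above 0 in 4.

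Across animals the pairs did not behave alike. In animal 1 all 10 genes were lower in intramuscular fat, from -0.02 for FLT1 to -1.47 for VWF on the log2 scale. In animal 5, PECAM1, KDR, FLT1, TEK and TIE1 were higher in intramuscular fat by 0.86, 0.95, 1.09, 1.24 and 0.68, while EGFL7 and VEGFB had log2 ratios of -1.19 and -1.08. FLT1, TEK and VEGFA were higher in 4 of 5 pairs, with animal 1 as the exception. PECAM1, TIE1 and VEGFB were lower in 4 of 5 pairs, with animal 5 as the exception for PECAM1 and TIE1 and animal 4 for VEGFB.

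On the log2 scale, each of the 10 genes was more even among intramuscular than among subcutaneous libraries, though ANGPT2 only slightly. The SD of log2 CPM ran between 0.11 and 0.60 among intramuscular and between 0.40 and 0.62 among subcutaneous libraries, with medians of 0.20 and 0.50. It was larger in subcutaneous fat for 10 of 10 genes, beside 68.9% of all genes tested, whose median SD was 0.32 in intramuscular and 0.44 in subcutaneous fat. PECAM1 had an SD of 0.15 in intramuscular against 0.61 in subcutaneous fat, and VEGFB had 0.11 against 0.42. ANGPT2 was the exception in size, at 0.60 against 0.62.

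Levels of different genes were compared per length, as TPM, a share of the listed transcripts corrected for gene length. The order of the means was the same in both depots except that VWF and PECAM1 changed places. EGFL7 had the highest mean, at 275 ± 58.0 TPM in intramuscular and 530 ± 136 TPM in subcutaneous fat, followed by VEGFB at 258 ± 20.0 TPM in intramuscular and 324 ± 63.9 TPM in subcutaneous fat (SD, n = 5 each). In intramuscular fat these neighbours lay within their spread of each other. PECAM1 (187 ± 17.1 TPM in intramuscular, 224 ± 98.4 TPM in subcutaneous fat) and VWF (169 ± 33.8 TPM in intramuscular, 237 ± 94.5 TPM in subcutaneous fat) also did not differ beyond their spread. VEGFA followed at 137 ± 16.1 TPM in intramuscular and 110 ± 33.0 TPM in subcutaneous fat. The receptors were lower, with TIE1 at 45.7 ± 6.67 TPM in intramuscular and 47.7 ± 18.7 TPM in subcutaneous fat. In intramuscular fat TEK had 34.2 ± 2.40 TPM, KDR 27.8 ± 3.27 TPM and FLT1 20.5 ± 2.17 TPM. In subcutaneous fat TEK had 25.3 ± 10.7 TPM, KDR 24.4 ± 9.27 TPM and FLT1 13.0 ± 6.36 TPM. ANGPT2 was last at 10.7 ± 5.28 TPM in intramuscular and 8.59 ± 3.94 TPM in subcutaneous fat. Between TIE1 and ANGPT2, neighbours in this order were separated by more than their SDs in intramuscular fat and not in subcutaneous fat.

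To ask whether the 10 genes changed by the same factor, the other 9 were each set against PECAM1 within a library, as the log2 ratio of counts, which does not depend on scaling between libraries. TEK stood higher relative to PECAM1 in intramuscular fat, at -1.58, -1.99, -1.97, -1.70 and -1.93 in replicates 1 to 5, against -2.43, -2.92, -2.48, -2.37 and -2.31 in subcutaneous replicates 1 to 5. The depots did not overlap in this ratio. The difference was 0.67, or 1.59-fold (exact permutation test, two-sided, p = 0.00794, which is the lowest value open to 5 libraries a depot; 0.0714 adjusted over the 9 ratios). FLT1 relative to PECAM1 was higher by 0.90, or 1.87-fold, with means of -1.97 ± 0.16 in intramuscular and -2.88 ± 0.71 in subcutaneous fat (SD, n = 5 each, exact permutation p = 0.0159, adjusted 0.0714). Both ratios were higher in 5 of 5 pairs, as was that of KDR, which was higher by 0.39 (exact permutation p = 0.0635, adjusted 0.161). The permutation test did not use the pairs. An exact test by sign flips of the 5 pairs gave p = 0.0625 each for TEK, FLT1 and KDR, the lowest value open to it. By exact permutation with adjustment 0 of the 9 ratios passed, and 2 had an unadjusted p under 0.05. A ratio alone at the lowest exact permutation p of 0.00794 is adjusted to 0.0714. It cannot pass unless other ratios are also low, so the absence of calls does not show equal change.

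EGFL7 relative to PECAM1 averaged -0.11 ± 0.23 in intramuscular and 0.70 ± 0.94 in subcutaneous fat (SD, n = 5 each). The difference for EGFL7 was -0.81 (exact permutation p = 0.0714, adjusted 0.161, and p = 0.125 by sign flips of 5 pairs). Its subcutaneous ratios were 0.11, 0.28, 1.09, -0.14 and 2.17 in replicates 1 to 5, so the mean rests mostly on replicates 3 and 5. VEGFA differed by 0.49, VWF by -0.31, VEGFB by -0.19, ANGPT2 by 0.47 and TIE1 by 0.15, with adjusted exact permutation p between 0.357 and 0.952. Without subcutaneous replicate 4, EGFL7 (-1.02), FLT1 (1.10) and TEK (0.70) passed with an adjusted exact permutation p of 0.0238 each. Without subcutaneous replicate 5, KDR (0.50), FLT1 (1.06), TEK (0.72) and VEGFA (0.79) passed with 0.0357 each, and VEGFB changed sign (0.21). In these fits too, no ratio could pass alone.

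**Figure D3:**
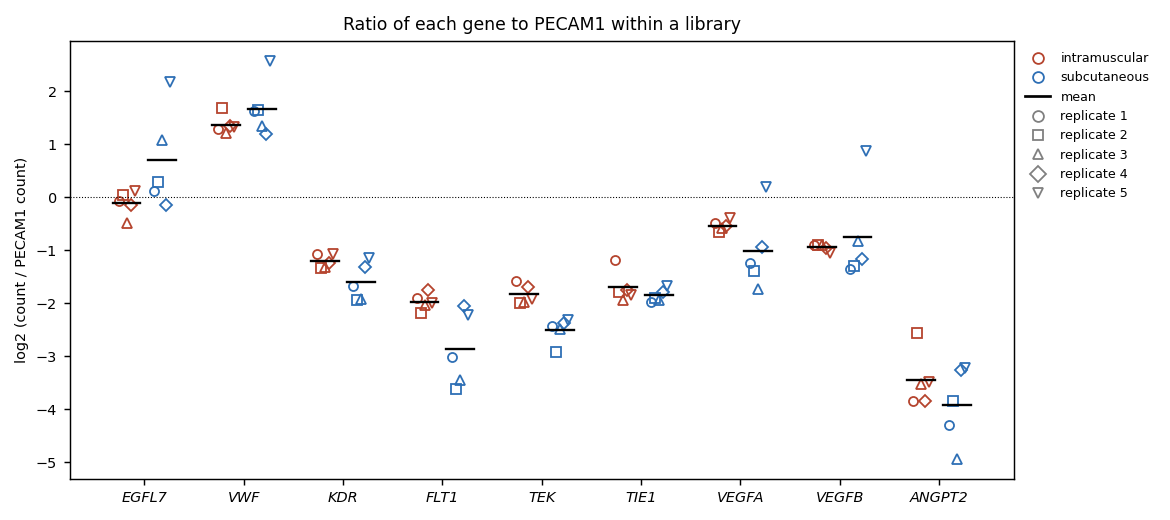
Log2 ratio of each gene's count to the PECAM1 count of the same library (y axis), for intramuscular (left, red) and subcutaneous (right, blue) libraries, 1 symbol per replicate number, with the mean as a bar. TEK is the gene whose depots do not overlap, and EGFL7 and VEGFB are highest in subcutaneous replicate 5 (2.17 and 0.87).

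Ratios within receptor and ligand pairs are given with no test, as the pairs were picked with the values known. The log2 ratio of TEK to TIE1 was -0.39, -0.21, -0.04, 0.04 and -0.07 in intramuscular replicates 1 to 5, against -0.46, -1.01, -0.54, -0.59 and -0.64 in subcutaneous replicates 1 to 5. That of VEGFA to VEGFB was 0.40, 0.23, 0.33, 0.40 and 0.66 in intramuscular replicates 1 to 5, against 0.11, -0.11, -0.92, 0.22 and -0.67 in subcutaneous replicates 1 to 5. The depots did not overlap in either ratio, though for VEGFA to VEGFB the nearest libraries of the depots were 0.23 and 0.22. FLT1 to KDR averaged -0.76 ± 0.17 in intramuscular and -1.27 ± 0.38 in subcutaneous fat and was higher in 5 of 5 pairs, with overlap. ANGPT2 to ANGPT1 averaged 2.93 ± 0.88 in intramuscular and 2.62 ± 0.58 in subcutaneous fat (SD, n = 5 each).

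Of 6 other VEGF family genes with values, FLT4 rose and VEGFD fell, beside 6.75% and 5.49% of all genes tested, with a median log2 fold change of 0.26. FLT4, the receptor for VEGFC and VEGFD that is strongest on lymphatic endothelium, measured 27.8, 28.6, 31.3, 31.6 and 34.8 CPM in intramuscular replicates 1 to 5, against 18.4, 9.45, 4.03, 7.81 and 4.29 CPM in subcutaneous replicates 1 to 5, so the depots did not overlap. It was 3.50-fold higher in intramuscular fat (log2 fold change 1.81 ± 0.36, SE; edgeR adjusted p = 0.00788) and was called in all 10 fits that left out 1 library. VEGFD, a ligand of FLT4, fell to 8.31 ± 6.09 CPM in intramuscular fat, against 21.1 ± 4.27 CPM in subcutaneous fat (SD, n = 5 each; log2 fold change -1.34, edgeR adjusted p = 0.0483). It kept its call in 1 of the 10 fits that left out 1 library, the one without intramuscular replicate 2 (-1.86, adjusted p = 0.00552), and had adjusted p of 0.0619 to 0.109 in the other 9. VEGFC, the other ligand of FLT4, measured 19.1 ± 7.21 CPM in intramuscular and 13.8 ± 1.88 CPM in subcutaneous fat. The co-receptor NRP2 measured 15.6 ± 4.22 CPM in intramuscular and 8.02 ± 3.27 CPM in subcutaneous fat. VEGFC and NRP2 had edgeR adjusted p of 0.199 and 0.0640. NRP2 passed without intramuscular replicate 1 (0.0445) or subcutaneous replicate 1 (0.0395). The co-receptor NRP1 and the FLT1 ligand PGF, which like ANGPT1 below are named after their values were seen, had log2 fold changes of -0.27 and 0.04.

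Lymphatic endothelial markers held both the largest rises among the vessel lists and genes that did not rise. Of 6 with values 3 rose and 0 fell, with a median log2 fold change of 3.18, beside 12.2% of all genes called. MMRN1, an extracellular protein of lymphatic and other endothelium and of platelets, measured 13.5, 21.8, 24.4, 26.5 and 60.1 CPM in intramuscular replicates 1 to 5, against 1.03, 5.50, 0.621, 1.12 and 1.29 CPM in subcutaneous replicates 1 to 5. It was 15.5-fold higher (edgeR adjusted p = 0.00137). RELN, a secreted protein of lymphatic endothelium and of the nervous system, was 12.5-fold higher (11.4 ± 2.64 CPM in intramuscular, 0.912 ± 0.578 CPM in subcutaneous fat, SD, n = 5 each, adjusted p = 0.00206). The transcription factor gene TBX1, which is also active in muscle, measured 7.76 ± 3.77 CPM in intramuscular and 0.893 ± 0.868 CPM in subcutaneous fat (edgeR adjusted p = 0.0204, and 0.0517 without intramuscular replicate 1). CCL21, a chemokine of lymphatic vessels and lymph nodes, measured 7.59 ± 3.34 CPM in intramuscular and 0.812 ± 1.57 CPM in subcutaneous fat. It was at 0 CPM in subcutaneous replicates 1, 3 and 5. Its edgeR adjusted p was 0.0632, and 0.0154 with the animal as a block. Of the 10 fits that left out 1 library it passed in 1, without subcutaneous replicate 2 (0.00336). By limma voom the adjusted p was 0.00999 and by DESeq2 0.118. Without intramuscular replicates 1 and 3 it was 0.155 (edgeR). The hyaluronan receptor LYVE1, also found on macrophages, and PDPN, also found on fibroblasts, measured 12.9 ± 5.71 and 9.64 ± 3.67 CPM in intramuscular fat, against 24.7 ± 16.6 and 9.49 ± 6.71 CPM in subcutaneous fat (adjusted p 0.206 and 0.982). They were named after their values were seen. Summed over the list, the markers reached 49.8 to 123 CPM in intramuscular and 6.89 to 64.1 CPM in subcutaneous libraries. PROX1, the defining transcription factor of these cells, was not analysed here.

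Among 33 other endothelial genes with values, 1 rose and 8 fell in intramuscular fat, beside 6.75% and 5.49% of all genes tested, with a median log2 fold change of -0.42. ROBO4, an endothelial guidance receptor, measured 191, 145, 142, 174 and 182 CPM in intramuscular replicates 1 to 5, against 495, 379, 332, 267 and 356 CPM in subcutaneous replicates 1 to 5 (edgeR adjusted p = 0.00228). CLDN5, a tight junction protein, and SOX18, a transcription factor of endothelium, were 0.388 and 0.441 times their subcutaneous level (adjusted p 0.0115 and 0.00868). CLDN5 was highest in subcutaneous replicate 3 (734 CPM), and replicate 4 (199 CPM) was the lowest subcutaneous library, as it was for EGFL7. AQP1, a water channel of capillary endothelium and red cells, went against the list and was 3.30-fold higher, at 397 ± 109 CPM in intramuscular and 120 ± 87.8 CPM in subcutaneous fat (SD, n = 5 each, adjusted p = 0.0144). ESAM, CLEC14A, CD34, ACVRL1 and APLNR were the other falls. The cadherin CDH5 (named after its values were seen) and the transcription factor ERG, which define endothelial cells, had log2 fold changes of -0.53 and -0.42 and adjusted p of 0.116 and 0.175. Each passed without subcutaneous replicate 5 (adjusted p 0.0404 and 0.0421). The number of falls was 4 without intramuscular replicate 3, 5 without intramuscular replicate 2, intramuscular replicate 4 or subcutaneous replicate 3, and 2 without intramuscular replicates 1 and 3. By DESeq2, which called 19.9% of all genes, 3 rose and 10 fell. NOS3 and MMRN2, named after their values were seen, then joined AQP1 among the rises (DESeq2 adjusted p 0.0260 and 0.0449).

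**Figure D4:**
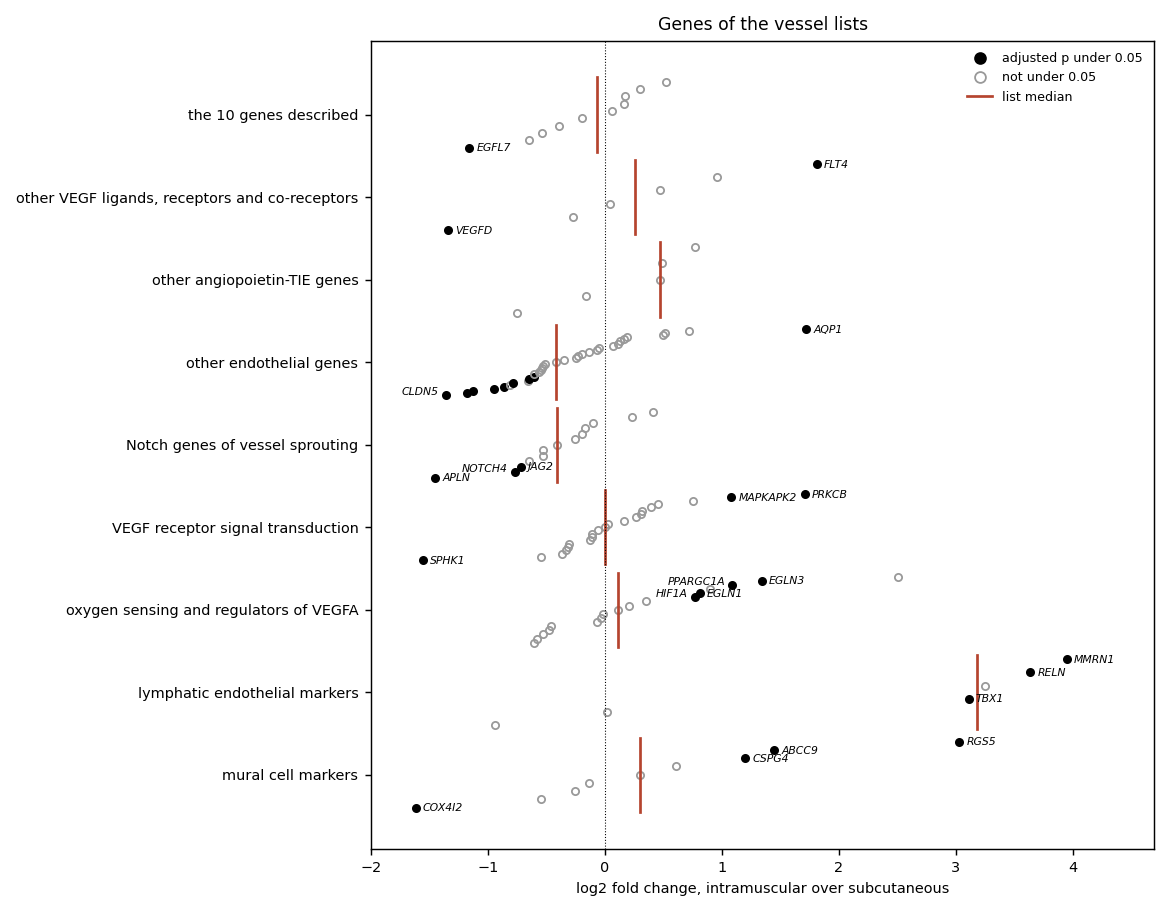
Log2 fold change (x axis, intramuscular over subcutaneous) of each tested gene in 9 lists, the 10 genes described first, with filled points where the edgeR adjusted p was under 0.05 and a bar at each list's median. The lymphatic list has the highest median (3.18) and the other endothelial genes the lowest (-0.42); in that list CLDN5 and AQP1 alone are labelled.

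The remaining angiopoietin genes did not pass. Of 5 with values 0 rose and 0 fell by edgeR, with 1 unadjusted p under 0.05 and 0 calls by DESeq2, and the median log2 fold change was 0.47. ANGPT1, the activator of TEK, measured 3.20 ± 0.787 CPM in intramuscular and 3.59 ± 1.19 CPM in subcutaneous fat (log2 fold change -0.16, and 0.05 without subcutaneous replicate 1). FOXO1, a transcription factor that TEK signalling holds back in endothelium and that is also active in muscle and fat cells, measured 52.9 ± 18.9 CPM in intramuscular and 30.9 ± 11.4 CPM in subcutaneous fat (SD, n = 5 each). edgeR gave it an adjusted p of 0.101. With intramuscular replicate 1 left out this was 0.0428, and with subcutaneous replicate 4 left out 0.0490.

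Genes of oxygen sensing, of the response to low oxygen and of VEGFA regulation made up a list of 17 with values. It had 4 rises and 0 falls, beside 6.75% and 5.49% of all genes tested, and a median log2 fold change of 0.11. With the animal as a block there were 5 rises and 1 fall. HIF3A, another factor of the family (5.69-fold), then joined the rises (edgeR adjusted p 0.00880, against 0.0540 without the block). It measured 65.5 ± 76.4 CPM in intramuscular and 11.5 ± 7.86 CPM in subcutaneous fat (SD, n = 5 each). Intramuscular replicate 5 was highest (197 CPM), and the depots overlapped. The vasodilator peptide gene ADM (0.667 times) was the fall (edgeR adjusted p 0.0486, against 0.125 without the block). Both were named after their values were seen. The prolyl hydroxylases EGLN3 and EGLN1, which mark hypoxia-inducible factors for breakdown, were 2.53- and 1.76-fold higher (edgeR adjusted p 0.00619 and 0.00887). In intramuscular replicates 1 to 5 EGLN3 measured 97.1, 60.6, 75.9, 40.5 and 40.1 CPM, the same order as the muscle markers except in the lowest libraries. In subcutaneous replicates 1 to 5 it measured 25.8, 32.0, 20.9, 19.6 and 25.6 CPM. Without intramuscular replicates 1 and 3 the adjusted p of EGLN3 and EGLN1 were 0.0549 and 0.0697, and the part of muscle transcripts in them was not tested. HIF1A, the inducible factor itself, was 1.71-fold higher (adjusted p = 0.0371), at 176 ± 42.9 CPM in intramuscular and 103 ± 26.1 CPM in subcutaneous fat. It lost its call without any 1 of intramuscular replicates 2 to 5 or subcutaneous replicates 1 to 3 (adjusted p up to 0.0839). EPAS1 of the same list, also named after its values were seen, measured 1069 ± 296 CPM in intramuscular and 1544 ± 396 CPM in subcutaneous fat. Its log2 fold change was -0.53 (edgeR adjusted p = 0.158). PPARGC1A, a coactivator that induces VEGFA in muscle of mice, had an adjusted p of 0.0498 and kept its call in 1 of the 10 fits that left out 1 library (0.0413 to 0.111). There were 2 rises without intramuscular replicate 2, 4 or 5, without subcutaneous replicate 2 or 3, and without intramuscular replicates 1 and 3. VEGFA itself did not pass, as given above.

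Of 21 genes that carry the VEGF signal inside the cell 2 rose and 1 fell (14.3% called, beside 12.2% of all genes tested), with a median log2 fold change of 0.00. SPHK1, a lipid kinase, fell to 26.4 ± 6.16 CPM in intramuscular fat, against 78.1 ± 26.1 CPM in subcutaneous fat (edgeR adjusted p = 0.00142), while the kinases PRKCB and MAPKAPK2 were 3.26- and 2.11-fold higher (adjusted p 0.0190 and 0.00928). Both rises lost the call without intramuscular replicates 1 and 3 (0.112 and 0.0659). Of 13 Notch and other sprouting genes 0 rose and 3 fell (23.1% called, beside 12.2% of all genes tested), with a median of -0.41. There was 1 fall without intramuscular replicate 3 or without subcutaneous replicate 2, and 0 without intramuscular replicates 1 and 3. JAG2, a Notch ligand, fell to 0.605 times its subcutaneous level (adjusted p = 0.0182, and 0.0766 without intramuscular replicates 1 and 3). The receptor NOTCH4 and the peptide APLN, which sprouting tip cells release, also fell (0.588 and 0.365 times, adjusted p 0.0341 and 0.0212). NOTCH4 kept its call in 4 of the 10 fits that left out 1 library, losing it without intramuscular replicates 1, 2 or 3 or subcutaneous replicates 1, 2 or 4 (up to 0.0832). APLN lost it without intramuscular replicate 3 (0.0619) or subcutaneous replicate 2 (0.0517).

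Mural cells, the pericytes and smooth muscle cells that wrap vessels, were higher in 3 and lower in 1 of 9 markers with values, beside 6.75% and 5.49% of all genes tested. RGS5 was 8.18-fold higher in intramuscular fat, whereas COX4I2, also a pericyte gene, was 0.324 times its subcutaneous level (edgeR adjusted p 5.74e-05 and 0.0142). Without intramuscular replicates 1 and 3 these were 0.000267 and 0.0680. Summed over the list, mural markers reached 2112 to 2692 CPM in intramuscular and 1750 to 2531 CPM in subcutaneous libraries. The smooth muscle markers ACTA2, MYH11, TAGLN and CNN1 were not analysed here. Of the other cell types that can hold PECAM1 or VEGF transcripts, macrophage markers with values (10 of 12) summed to 231 to 496 CPM in intramuscular and 236 to 1108 CPM in subcutaneous libraries. Of these markers 0 rose and 4 fell, beside 5.49% of all genes tested, with 2 falls without intramuscular replicate 3 and 0 without intramuscular replicates 1 and 3. Their part in the values of the 10 genes was not tested.

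By pattern over the 10 libraries, EGFL7 and PECAM1 had different neighbours. Likeness was the root mean square difference of log2 CPM, each gene centred on its own mean, over 10238 genes with a mean of at least 5 CPM. The genes nearest to EGFL7 were XAF1, an interferon-induced gene, IGF2, a growth factor, USHBP1 and LGALS9, a galectin, at 0.197 to 0.227. IGF2 measured 641, 630, 555, 535 and 733 CPM in intramuscular replicates 1 to 5, against 1288, 1360, 1393, 773 and 1477 CPM in subcutaneous replicates 1 to 5, and like EGFL7 was least in subcutaneous replicate 4 of its depot. Nearest to PECAM1 were AOC3, an amine oxidase of endothelium, smooth muscle and fat cells, NPR1, the receptor for atrial natriuretic peptide, ARHGEF10 and ERG, at 0.124 to 0.146. TIE1 was the 21st nearest to PECAM1 (0.217), KDR the 228th (0.309), and EGFL7 the 8028th (0.733). Nearest to VEGFA were PTPN9, GTF3C2, SREBF2, the transcription factor of cholesterol synthesis, and HYOU1, a chaperone, at 0.119 to 0.159.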

How the data were processed

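RNA was sequenced from intramuscular and subcutaneous fat of 5 heifers (5 libraries each). Per the labels' protocols, random-primed libraries with a dUTP second strand were sequenced in pairs. Per the submitters' processing notes, reads went through DESeq2 1.42.0, featureCounts 2.0.2, STAR 2.7.11a and Trimmomatic 0.39, listed with no order. No source used here names the genome build or the strand setting, and coordinates are the deposited table's. The authors deposited raw counts per gene, gene lengths, mean counts per depot, a base mean (size-factor-scaled signal), a log2 fold change with its standard error and Wald score, and a p-value with its adjusted p-value. Library totals are totals of listed genes.

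The counts were tested with edgeR 4.0.16 (quasi-likelihood, two-sided, TMM, filterByExpr on depot, R 4.3.3), with Benjamini-Hochberg adjustment over 12521 genes; 153 were removed. Alternatives were DESeq2 1.42.0, limma 3.58.1 (voom), other size factors, no filter, a replicate block and left-out libraries. TPM used the table's gene lengths; ratios added 0.5 to each count. On simulated counts for this comparison (12370 genes, 192 changed), 33.3% of 2-fold and 83.9% of 4-fold changes were called, and 3.48% of calls were unchanged genes.

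The members, gene lists, tests and named genes (per list, the 4 of smallest p and called genes against the median; for EGFL7, PECAM1 and VEGFA the 4 most alike) were chosen with earlier results of these data known. The design text says both depots came from the same heifers, and over 12521 genes the deviations from the depot mean of libraries 1 to 5 correlated between depots at 0.102, 0.181, 0.176, 0.161 and 0.237. Equal numbers therefore count as pairs. The main edgeR test and the exact permutation test did not use these pairs. In tests, the pairs entered only as the replicate block and the sign flips. Animals differ, so p-values cover variation between animals. RefSeq (ARS-UCD2.0) gave names of microRNA genes inside members (10 of 10 members matched). Members' sequences were not used here.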

Additional observations from a re-analysis of the deposited data

Results flagged for a closer look

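In groups of 5 libraries, 6 of 62 had a highest or lowest value farther from the rest than Dixon's 95% critical value of 0.71 allows, a share of gap to range that chance exceeds in about 1 of 20 groups. KDR CPM in intramuscular fat reached 0.747, with replicate 5 (143 CPM) above the others. The log2 ratio to PECAM1 in intramuscular fat reached 0.741 for VWF (replicate 2, 1.68), 0.747 for TIE1 (replicate 1, -1.19) and 0.722 for ANGPT2 (replicate 2, -2.56). In subcutaneous fat it reached 0.719 for TEK (replicate 2, -2.92) and 0.764 for VEGFB (replicate 5, 0.87).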

How the results depend on the processing

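The call of EGFL7 as lower and of no member as higher held with DESeq2's size factors, no filter, limma voom and the replicate block (edgeR adjusted p of EGFL7 0.0193). The animal block ended or added no call among the 10 genes. Among the lists it moved the oxygen-sensing calls to 5 higher and 1 lower and the adipocyte falls to 4. It also moved the lymphatic rises from 3 to 4 and the falls of other endothelial genes from 8 to 7. By DESeq2 2 members were lower (VWF joined), and without intramuscular libraries 1 and 3, 0 were. With 1 library left out, 1 to 3 members were lower and 0 to 1 higher. Of 160 values of the 10 fold changes under 16 alternatives, 150 kept direction and side of the threshold. With 1 library left out the log2 fold change ran from -0.15 to 0.31 for ANGPT2 and from -0.06 to 0.20 for KDR. It also turned sign for ANGPT1 (-0.28 to 0.05), GTF3C2 (-0.03 to 0.18), MCPH1 (-0.14 to 0.16, and 0.04 without intramuscular libraries 1 and 3), MILR1 (-0.16 to 0.42), PDPN (-0.27 to 0.34) and PGF (-0.15 to 0.24). Of the ratios to PECAM1, 0 to 4 passed with 1 library left out, and an exact test by sign flips of 5 pairs cannot go below p = 0.0625. VEGFB's ratio ran from -0.34 to 0.21. Over all genes, edgeR called 845 higher and 688 lower, DESeq2, on all 12674 genes, 1369 and 1171, and without intramuscular libraries 1 and 3 the counts were 306 and 67; fewer samples enter that fit. Changes near 2-fold were mostly missed in the simulation, which drew on genes of all levels, so genes that did not pass may still differ by that much. Among the 10 genes, the 95% intervals of VWF (-1.15 to -0.14) and FLT1 (0.01 to 1.04) include a 2-fold change. Those of the other members that did not pass do not.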
